A study of Mus musculus with 6 samples.

Results

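Potassium channel genes were followed over the 6 arrays of the series. The members are the probes whose gene name starts with Kcn and continues with letters and a number, without Kcne2, Kcnj13, Kcnq1, Kcnq1ot1 and Kcnk9. This rule gave 134 probes of 89 genes among the 55681 probes on the array. The array names 34797 genes or transcripts in all. Of the channel genes 53 had 1 probe and 36 had more, up to 5.

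Control pups had C57BL/6J mothers whose food, an AIN-93G formula made from amino acids, held 2 mg folic acid (FA) per kg, and test pups had mothers on 20 mg/kg. The mothers were already on their diet when they were mated. Each array held RNA pooled from 3 pups of 1 sex at postnatal day 1 (P1), every pup from another dam. For each sex there was 1 array at 2 mg, the control, and 2 arrays at 20 mg, of which the repeat pool came from another extraction batch. Titles and paper give the tissue as cerebellum, while a tissue field of the labels gives whole brain, and the 5 forebrain genes looked at were above background on 4 of the arrays.

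Potassium channels let potassium ions leave or enter a cell along their gradient. They set the resting potential, end the action potential and shape how fast a neuron can fire. Voltage-gated (Kv) channels open on depolarisation, calcium and sodium activated channels couple the current to other ions, inward rectifiers and 2-pore-domain channels hold the membrane near rest, and auxiliary subunits change gating or traffic. Kv3 channels, of which Kcnc1 encodes a pore subunit, are known for the narrow spikes of fast-firing cerebellar neurons.

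Values below are normalized signals on the log2 scale, where 3.32 is the floor. A probe was counted as detected where the scanner software marked it well above background. The array labelled female 20 mg replicate 2 stood apart from the rest, with 23.3% of all probes detected against 51.1% to 71.9% on the other 5 arrays, so the female calls are given with and without it. It was scanned with male 20 mg replicate 1 on the earlier day, on another slide than both 2 mg arrays, which shared theirs with female 20 mg replicate 1. Male 20 mg replicate 2 was scanned on the later day, on a slide that held no other array of the series. Choroid plexus and forebrain markers also varied between the arrays: the summed linear signal of 5 choroid plexus genes was 5730 at 2 mg and 79848 and 29670 at 20 mg in females, and 26696 at 2 mg and 47368 and 45136 at 20 mg in males. On every array at 20 mg the brightest of the 5 was Ttr, at 16.16 and 14.59 in females and 15.31 and 15.30 in males. Ttr, Folr1 and Clic6 were higher on every 20 mg array than on the 2 mg array of the sex. Otx2 and Kl were higher on some only, and Otx2 was lower on both male 20 mg arrays.

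Several results turned on which stretch of a transcript a probe reads. The first 30 bases of the probes of Kcnc1, Kcna6, Kcnma1 and Kcnj4 are therefore shown as the array design gives them, 5′ to 3′ and in lower case throughout. The Kcnc1 probes lie on the + strand of chromosome 7 in mm9, at 53682767 to 53682826, 53688622 to 53688681 and 53693712 to 53693771. According to the design the first reads both RefSeq transcripts listed for the gene, the middle one reads only one of them and the last reads only the other. The Kcna6 probes lie on the - strand of chromosome 6, at 126658424 to 126658483, 126686702 to 126686761 and 126686922 to 126686981. Those of Kcnma1 lie on the - strand of chromosome 14, between 24118701 and 24130975, and the Kcnj4 probe on the - strand of chromosome 15, from 79314133 to 79314157 as far as the design places it.
Kcnc1 A_52_P592305: tgtctggagactcacgagcgcttcaacccc
Kcnc1 A_55_P2007243: gccttgccgtcttgtacgacagactttttt
Kcnc1 A_52_P867058: gagattcgagcatgaaataaattttgtaac
Kcna6 A_52_P130787: gagagttgctggtctgatcaaaggagagga
Kcna6 A_55_P2177273: tgtcatggtccctctttgtgcctcagttcc
Kcna6 A_55_P2123283: tcttctcagttctcatgggtacagctctga
Kcnma1 A_55_P2071656: agattccttgatgcacatttctcttctttc
Kcnma1 A_55_P2378486: tgggtgggcagtcaatgtatacatgtaaat
Kcnma1 A_51_P187352: tggtgatctgttctgcaaagctctgaaaac
Kcnj4 A_51_P166740: gcatgactgtggtctgtgctcttgattctc

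Most potassium channel genes were detected in these pools. On the 2 mg arrays 97 (female) and 101 (male) of the 134 probes were detected, on the male 20 mg arrays 89 and 89, and on female 20 mg replicate 1 111. On female 20 mg replicate 2 it was 33. Kv1 to Kv4 pore subunits were detected most often, with 26 of 28 probes on each 2 mg array, and Kcnq probes least, with 5 of 11. A probe of 31 genes was detected on all 6 arrays, among them Kcnd2 and Kcnd3, the pore subunits of the A-type current, Kcnip3 and Kcnip4, their calcium-binding partners, and Kcnj10, the inward rectifier of astrocytes.

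No probe was detected on any array for 12 genes, namely Kcna10, Kcnab2, Kcne1, Kcng3, Kcng4, Kcnj1, Kcnj2, Kcnk18, Kcnk7, Kcnmb1, Kcnmb3 and Kcnn1. Of the 81 member probes detected on the other 5 arrays, 48 were not detected on female 20 mg replicate 2, which is 59.3% against 51.8% of all such probes.

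**Figure D1:**
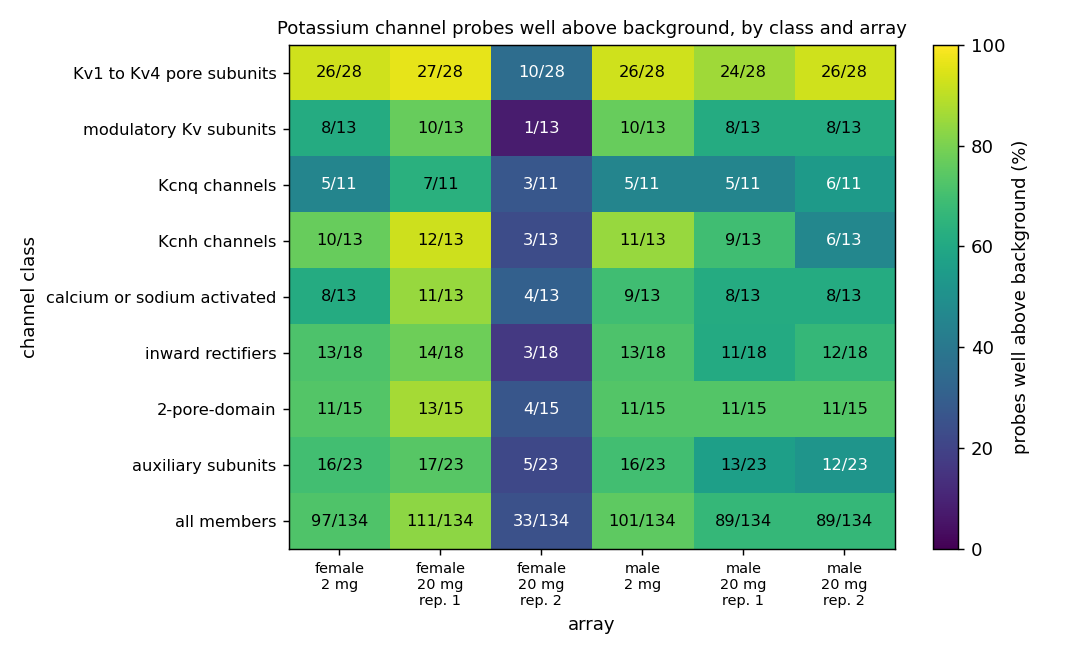
Number of potassium channel probes well above background over the number of probes in each class, per array (columns), with colour for the share in percent. The column of female 20 mg replicate 2 is the darkest in all 8 classes and ends at 33 of 134.

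The comparison of the diets asks which transcripts differ by 2.5-fold or more between 20 mg and 2 mg FA within a sex. A variation filter came first, which keeps probes that vary more than the median probe at a chi-square p of 0.05 or less. It kept 35 of the 134 member probes and 15247 of all 55681 probes. In males no member probe passed the filter and the fold rule in either direction. Over all probes 2.17% were called lower and 1.42% higher. In females 12 member probes were called lower and 9 higher, or 8.96% and 6.72% of the members, against 10.3% and 8.65% of all probes. The female split depended on scaling, with 0 lower and 1 higher after a 75th percentile shift, 19 and 6 with the floor set before normalization, and 12 and 3 in the deposited table. Shares of all probes are not given for these settings. The median difference over the 134 members was 0.18 in males and 0.05 in females, where the median over all probes was 0. Medians lay closer among probes detected on every array but female 20 mg replicate 2. On male replicates 1 and 2 they were 0.28 and -0.16 for members and 0.19 and -0.23 for all such probes. On female replicates 1 and 2 they were 0.07 and -0.26 for members and 0.05 and -0.44 for all such probes. As 1 array stands for 2 mg in each sex, a fold call carries no error of its own.

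Female calls rested almost entirely on replicate 2. None of the 12 probes called lower was detected on that array, and 8 of them were at the floor there, although all 12 were detected on the other 5 arrays. Only 2 of the 12, 1 of Kcnc1 and 1 of Kcna6, were also past 2.5-fold lower on replicate 1. Of the 9 called higher, 3 were detected on replicate 2, 4 were detected on no array and 1, of Kcnj4, was past 2.5-fold on replicate 1. With replicate 2 left out and the normalization repeated, 2 of the 12 and 1 of the 9 were still called, and the median difference of the 12 went from -2.09 to 0.07.

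Single arrays show the same contrast. Against the female 2 mg array, replicate 1 had 4 member probes past 2.5-fold lower and 4 higher (all probes: 2.49% lower and 1.47% higher), and replicate 2 had 33 lower and 36 higher (all probes: 23.1% and 24.4%). Against the male 2 mg array, replicate 1 had 7 lower and 21 higher (all probes: 9.14% and 5.69%), and replicate 2 had 11 lower and 13 higher (all probes: 5.96% and 7.42%). Past 2.5-fold on both 20 mg arrays of a sex in 1 direction were 3 probes lower and 2 higher in females, and 0 lower and 2 higher in males. Among all probes these shares were 1.28% and 0.476% in females and 1.29% and 0.329% in males. On the slide that held both 2 mg arrays and female 20 mg replicate 1, 85 of 95 member probes detected on all 3 arrays spanned less than 1 unit (89.5%, against 88.3% of all such probes).

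**Figure D2:**
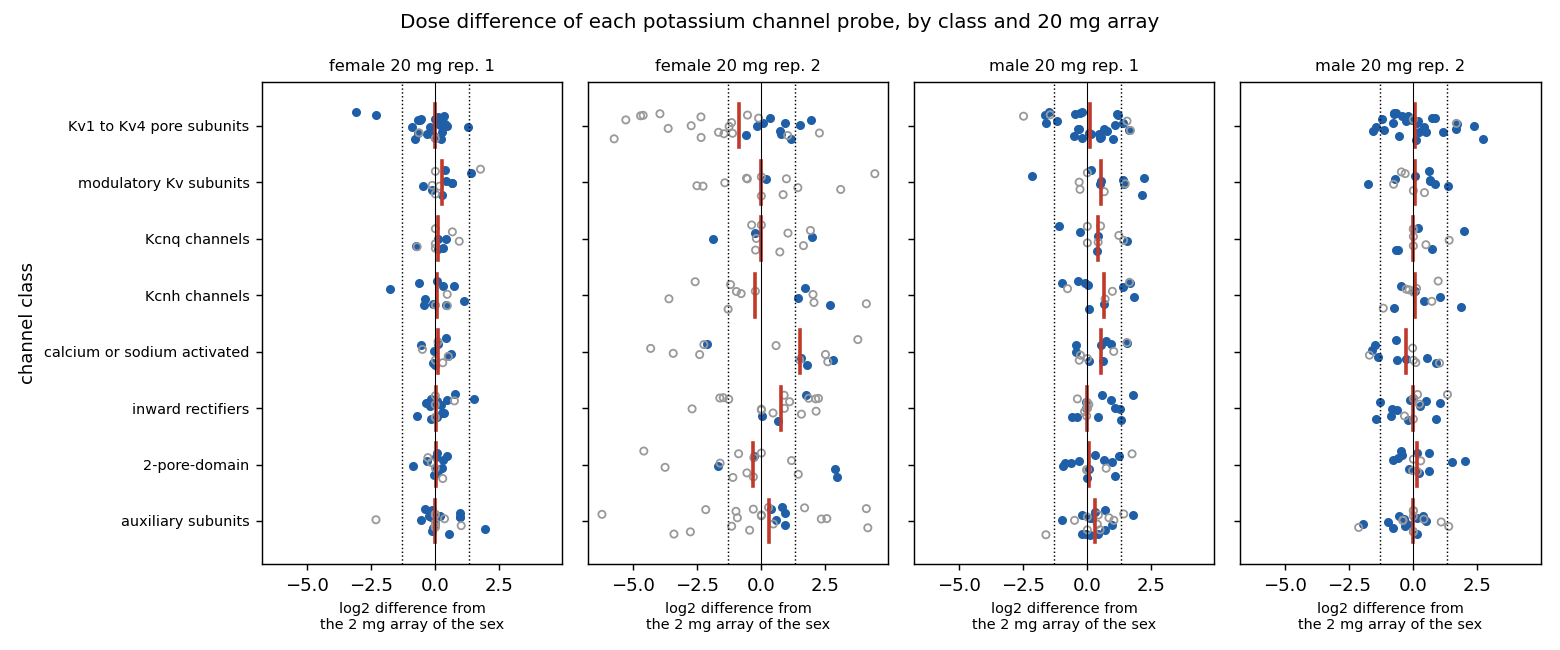
Log2 difference of each of the 134 probes from the 2 mg array of its sex (x axis) by channel class (y axis), 1 panel per 20 mg array. Filled points were detected on both arrays compared, open points were not, red bars are class medians and dotted lines mark 2.5-fold. Points scatter widely on female replicate 2, from -6.23 to 4.43, and closely on female replicate 1.

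No difference passed a test. In the limma fit, which took in the 103 member probes detected on at least 2 arrays, 0 had an adjusted p under 0.05 for the difference in males, in females, over both sexes or for the interaction of dose and sex (all probes: 0% each). At an unadjusted p under 0.05 there was 1 member in females, the Kcnc1 probe A_55_P2007243 (all probes: 0.433%), and 0 in males (0.199%), over both sexes (0.39%) and in the interaction (0.137%). The median standard error of a member was 1.75 within a sex and 1.24 over both, so a change would need to be many-fold to pass. An exact permutation of the 3 arrays of a sex cannot give a p under 0.333.

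Kv3 pore subunits, which repolarise fast-spiking neurons, held the most negative mean difference among the members in females. Probe A_55_P2007243 of Kcnc1 read 10.84 at 2 mg and 8.53 and 5.09 at 20 mg in females. In males it read 10.35 at 2 mg and 10.13 and 9.79 at 20 mg. Both female 20 mg arrays lay under all other arrays, and replicate 2 was not detected. The mean of the female 20 mg pools was 6.81 ± 2.43 (SD, n = 2), 16.4-fold lower than the 2 mg array. The limma difference was -4.03 with a standard error of 1.61 (adjusted p = 1). With replicate 1 alone it was -2.31 against the female and -1.81 against the male 2 mg array of the same slide.

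The other 2 probes of Kcnc1 did not show this on replicate 1. A_52_P592305 read 8.04 at 2 mg and 8.41 and 3.32 at 20 mg in females, and 8.54, 9.19 and 9.69 in males, in the same order. It was at the floor on female replicate 2 and higher than the 2 mg array on the other 3 arrays at 20 mg. A_52_P867058 was detected on all 6 arrays and read 9.32 at 2 mg and 9.52 and 9.38 at 20 mg in females. Its male values were 9.21 at 2 mg and 9.33 and 8.45 at 20 mg. The female 20 mg arrays differed from the 2 mg array by 0.20 and 0.07 on this probe. It was the brightest of the gene by its mean over the 6 arrays, although A_55_P2007243 was brighter on every array except those of females at 20 mg.

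Kcnc2, another Kv3 pore gene, read 8.62 at 2 mg and 8.70 and 3.32 at 20 mg in females. Its male values were 8.55, then 9.0 and 6.97. The female call of 6.08-fold lower thus came from replicate 2 at the floor, and replicate 1 differed by 0.09. Kcnc4 read 9.83, 9.21 and 8.15 in females and 9.42, 10.19 and 9.65 in males, each time with the 2 mg array first. Kcnc4 was thus lower on both female 20 mg arrays, with replicate 2 not detected, and higher on both male 20 mg arrays.

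Kv1 channels sit at axons and nerve terminals and limit repetitive firing. Kcna1 read 9.30 at 2 mg and 9.73 and 10.04 at 20 mg in females, and 9.33 at 2 mg and 9.40 and 8.18 at 20 mg in males. Kcna2 read 6.96 at 2 mg and 7.30 and 3.32 at 20 mg in females and 6.56, 7.76 and 7.06 in males. It was called 3.14-fold lower in females although 3 of the 4 arrays at 20 mg lay above the 2 mg array of their sex. Kcna5, whose product carries a fast activating current, read 7.76, 7.66 and 3.80 in females on its brightest probe and 7.78, 6.16 and 7.94 in males. On this probe 1 array of each sex, in both cases that of the earlier scan day, made up the differences of -2.03 and -0.73. The other Kcna5 probe read 7.61, 7.94 and 4.87 in females and 7.35, 6.81 and 5.89 in males. In males its larger difference, -1.46, was on replicate 2, of the later scan day.

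Kcna6 resembled Kcnc1 in that its probes parted. Probe A_55_P2123283 read 7.94 at 2 mg and 4.84 and 3.32 at 20 mg in females, a mean difference of -3.86 or 14.5-fold, and 6.14, 5.81 and 5.70 in males. The female 2 mg array was the highest of all, and replicate 1 differed from it by -3.11 but from the male 2 mg array by -1.31, just inside 2.5-fold. Probe A_55_P2177273 read 10.14, 11.40 and 10.48 in females and 9.70, 9.48 and 12.42 in males. Probe A_52_P130787, the brightest, read 13.15, 13.23 and 14.68 in females and 13.16, 12.67 and 12.89 in males. Neither of these was lower at 20 mg on a female array.

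**Figure D3:**
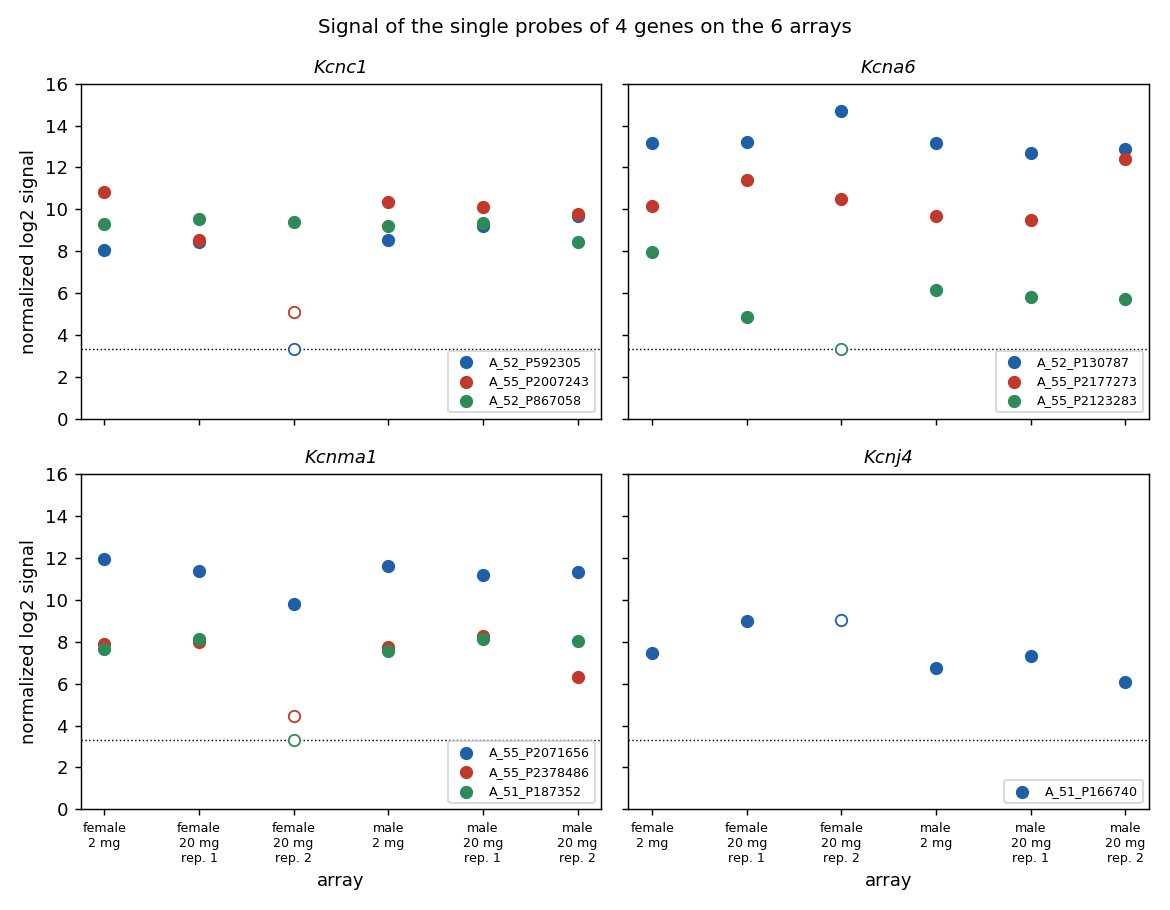
Normalized log2 signal (y axis) of each probe of Kcnc1, Kcna6, Kcnma1 and Kcnj4 on the 6 arrays (x axis). Filled points were detected, open points were not, and the dotted line is the floor. Only A_55_P2007243 of Kcnc1 and A_55_P2123283 of Kcna6 were past 2.5-fold lower on both female 20 mg arrays.

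Kv4 subunits set the A-type current of dendrites. Kcnd2 read 12.90, 13.17 and 12.31 in females and 12.79, 13.77 and 11.98 in males. Its mean differences of -0.16 and 0.09 were smaller than the spread between the pools at 20 mg (SD 0.61 and 1.26, n = 2).

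Modulatory Kv subunits form no channel alone but alter Kv2 channels. The brightest probe of Kcnf1 stood out on replicate 1 of both sexes. It read 6.21 at 2 mg and 7.61 and 3.69 at 20 mg in females, and 6.15 at 2 mg and 8.36 and 6.22 at 20 mg in males. Replicate 1 of each sex was therefore past 2.5-fold higher (by 1.40 and 2.22), while replicate 2 was past 2.5-fold lower in females (-2.52) and differed by 0.07 in males. The other Kcnf1 probe differed by 0.25 on female and -0.29 on male replicate 1. Kcns1 read 4.22 at 2 mg and 5.98 and 7.32 at 20 mg in females, with detection only on replicate 1. Replicate 1 differed by 1.76 from the 2 mg array, where the probe was under detection. In males all 3 arrays were detected and read 4.72 at 2 mg and 6.11 and 5.33 at 20 mg.

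Kcnq3 and Kcnq5 encode subunits of the M current, which damps excitability. Kcnq3 read 5.26, 5.35 and 6.90 in females and 5.52, 5.95 and 6.27 in males, higher on all 4 arrays at 20 mg by 0.09 to 1.64. The largest of these differences was on female replicate 2, where the probe was not detected. The female difference of 0.87 turned to -0.55 with the floor set before normalization, -0.23 with normexp and -0.53 in the deposited table. Kcnq5 read 6.89, 7.18 and 6.66 in females and 6.32, 7.88 and 5.70 in males.

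Kcnh genes encode the ether-a-go-go family of slow voltage-gated channels. Kcnh1 read 4.62 at 2 mg and 5.37 and 3.32 at 20 mg in females, and 4.86, 6.24 and 4.69 in males. A probe of Kcnh7, A_55_P2012704, was past 2.5-fold lower on both female 20 mg arrays, with 5.91 at 2 mg and 4.12 and 3.32 at 20 mg, but the male 2 mg array read 4.09. The other Kcnh7 probe read 6.27, 6.31 and 5.48 in females.

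Kcnma1, the pore of the large-conductance calcium activated channel, was lower on female replicate 2 with all 3 probes. The brightest, A_55_P2071656, was detected on all 6 arrays and read 11.94 at 2 mg and 11.36 and 9.82 at 20 mg in females. In males it read 11.62 at 2 mg and 11.19 and 11.34 at 20 mg. All 4 arrays at 20 mg lay under the 2 mg array of their sex, with differences from -2.13 to -0.27, and the female difference of -1.35 passed 2.5-fold but not the variation filter. A_55_P2378486 read 7.88, 7.99 and 4.43 in females, and A_51_P187352 read 7.65, 8.14 and 3.32. Both were called lower in females, by 3.17-fold and 3.78-fold, with replicate 1 above the 2 mg array. In males A_55_P2378486 read 7.73, 8.27 and 6.33, higher on replicate 1 and lower on replicate 2. A_51_P187352 read 7.54, 8.14 and 8.06 there, higher on both male 20 mg arrays.

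Kcnmb4, the neuronal beta subunit of that channel, read 12.42 at 2 mg and 12.95 and 12.79 at 20 mg in females on its brightest probe, and 12.39, 12.19 and 11.82 in males. It was higher on both female and lower on both male 20 mg arrays, with differences from -0.57 to 0.53 (interaction adjusted p = 1 in limma). Its other probe read 6.74, 8.66 and 3.32 in females and 7.55, 7.99 and 7.69 in males, so it took another direction on female replicate 2 and on both male arrays. Kcnn2, a small-conductance calcium activated channel, read 11.29, 11.28 and 8.88 in females and 10.93, 11.67 and 9.42 in males. Kcnt1, a sodium activated channel, had the smallest limma p over both sexes among the brightest probes. It read 9.26 at 2 mg and 9.88 and 12.05 at 20 mg in females, and 9.07, 10.63 and 9.94 in males. All 4 arrays at 20 mg were higher, by 0.62 to 2.79 (adjusted p = 1).

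Among inward rectifiers Kcnj4 was past 2.5-fold higher on both female 20 mg arrays, as was Kcns1 among the modulatory subunits. Kcnj4, a strong inward rectifier, read 7.48 at 2 mg and 9.01 and 9.04 at 20 mg in females, and 6.72 at 2 mg and 7.31 and 6.07 at 20 mg in males. Both female 20 mg arrays lay above every other array, with replicate 2 not detected. The female mean was 9.03 ± 0.03 (SD, n = 2), 2.92-fold higher, with a standard error of 1.99 on the limma difference of 1.55 (adjusted p = 1). Replicate 1 lay 2.28 above the male 2 mg array. Past 2.5-fold on replicate 1 against both 2 mg arrays were 1 member probe lower (Kcnc1) and 2 higher (Kcnj4 and the brightest of Kcnf1). Among all probes the shares were 1.04% and 0.447%.

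Forebrain markers followed Kcnj4 and Kcnf1 on some arrays only. Their summed linear signal over 5 of 5 genes was 5337 at 2 mg and 12693 and 2155 at 20 mg in females, and 1272 at 2 mg and 4141 and 1443 at 20 mg in males. In both sexes replicate 1 was the highest array for these markers, as it was for the brightest Kcnf1 probe, and for Kcnj4 in males. The other Kcnf1 probe was highest on replicate 2 in both sexes. In females Kcnj4 was as high on replicate 2, where it was not detected and the marker sum was lowest. On male replicate 2 Kcnj4 lay under the 2 mg array and the marker sum above it. Dlx1, a gene of forebrain interneuron precursors, read 7.52, 9.43 and 3.32 in females and 4.40, 7.40 and 4.73 in males, and only on female replicate 2 was it at the floor. The part of forebrain tissue in these results was not tested.

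Other inward rectifiers varied between the arrays. Kcnj10, which clears potassium into astrocytes, read 11.30 at 2 mg and 11.13 and 11.32 at 20 mg in females, and 10.59, 11.85 and 10.84 in males. Its female 20 mg arrays differed from the 2 mg array by -0.17 and 0.03. Kcnj3, Kcnj6 and Kcnj9 encode channels gated by G proteins. Kcnj3 read 5.43, 5.06 and 6.33 in females and 5.63, 5.52 and 6.52 in males on its brightest probe. Its other probe read 4.95, 5.20 and 3.32 in females and 5.33, 6.43 and 5.21 in males, with the opposite sign on each array at 20 mg. Kcnj6 read 4.81, 5.59 and 3.32 in females and 5.35, 7.15 and 5.15 in males. Kcnj9 read 6.85, 6.63 and 8.97 in females and 6.74, 6.32 and 6.72 in males. On female replicate 2 Kcnj3, Kcnj6 and Kcnj9 were not detected. Kcnj8, the pore of ATP-sensitive channels in pericytes, read 6.39, 6.46 and 7.28 in females and 6.78, 6.16 and 5.33 in males. It was higher on both female arrays, with replicate 2 not detected, and lower on both male arrays (interaction adjusted p = 1 in limma). Its female difference of 0.48 turned to -1.11 with the floor set before normalization and to -0.97 in the deposited table.

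Leak channels of the 2-pore-domain class differed from gene to gene. Kcnk1 read 9.60 at 2 mg and 9.66 and 9.30 at 20 mg in females, and 9.28, 10.35 and 9.51 in males. Kcnk10 read 11.21, 11.46 and 9.50 in females and 11.06, 11.11 and 10.91 in males. Kcnk3, an acid-sensitive leak channel, read 8.11, 8.42 and 3.52 in females and 7.95, 8.58 and 8.58 in males. It was called 4.42-fold lower in females, while the 3 detected arrays at 20 mg lay 0.31 to 0.63 above the 2 mg array of their sex.

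Auxiliary subunits held the largest female fold outside the probes of Kcnc1 and Kcna6. Kcnab1, a beta subunit that speeds Kv1 inactivation, read 9.55 at 2 mg and 9.14 and 3.32 at 20 mg in females. In males it read 9.24 at 2 mg and 9.93 and 9.63 at 20 mg. Its probe lies on chromosome 3 at 65181718 to 65181777 (mm9, + strand). The female mean of 6.23 ± 4.11 (SD, n = 2) was 9.99-fold lower, with a difference of -0.41 on replicate 1 and -6.23 on replicate 2. It had the smallest limma p among the brightest probes in females and in the interaction (adjusted p = 1 in both). Kcnip1 read 9.20, 9.08 and 8.27 in females and 9.16, 9.86 and 9.57 in males. The brightest probe of Kcnip4 read 11.36, 11.21 and 11.92 in females and 11.01, 11.17 and 10.63 in males. The other Kcnip4 probe read 6.10, 7.06 and 3.32 in females and 5.88, 7.68 and 5.56 in males.

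**Figure D4:**
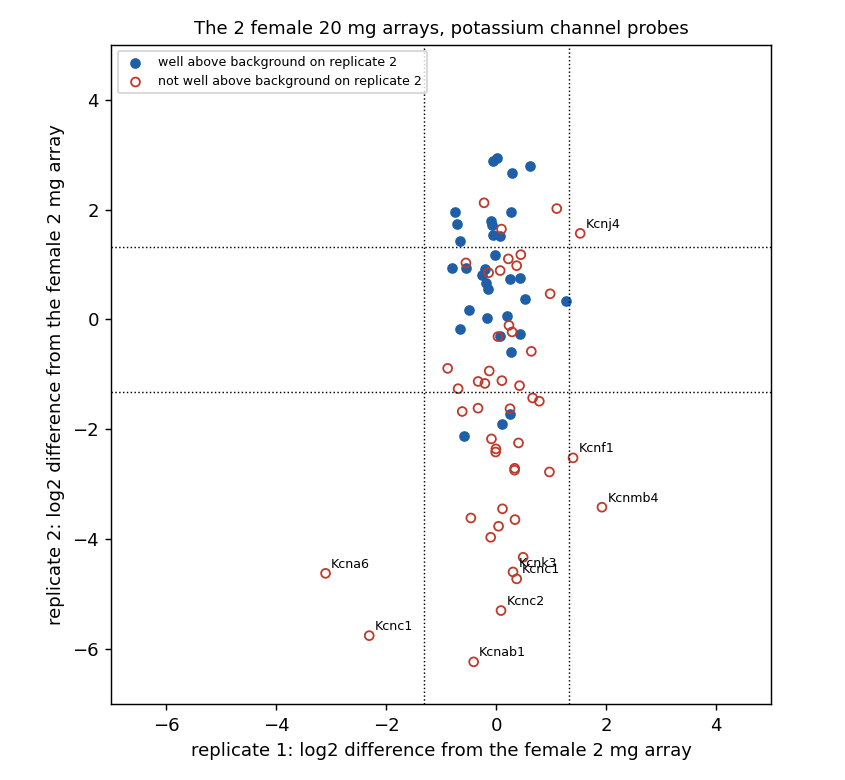
Log2 difference from the female 2 mg array on replicate 1 (x axis) and on replicate 2 (y axis) for the 81 probes detected on the other 5 arrays. Open red points were not detected on replicate 2 and dotted lines mark 2.5-fold. The cloud is narrow along x and wide along y, and only Kcnc1 and Kcna6 lie past both lines at the lower left.

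Of the 5 genes that the study listed as lower in females (Kcnc1, Kcnab1, Kcnc2, Kcna5 and Kcnma1), all had a probe called lower here, which is no independent evidence since they were chosen on these arrays. Without replicate 2 only the Kcnc1 probe A_55_P2007243 kept a call among their probes. Of the 36 genes with more than 1 probe, 7 had a called probe in females (19.4%, against 42.2% of all such genes on the array) and 0 had all their probes called (2.55% of all such genes).

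Among the 9 probes called higher in females, those of Kcnk15, Kcnk16 and Kcnh3 were detected on replicate 2 and on all other arrays. Kcnk15 read 8.01 at 2 mg and 8.02 and 10.96 at 20 mg, Kcnk16 6.68, 6.62 and 9.55, and Kcnh3 8.87, 9.15 and 11.54. On each of these, replicate 1 was within 0.28 of the 2 mg array. The probes of Kcne1, Kcng3, Kcnmb3 and 1 of Kcnh4 were detected on no array.

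In males, replicate 1 had 21 member probes past 2.5-fold higher, and 2 of these were so on replicate 2, where their median difference was 0.09. They included Kcnf1, Kcns3, Kcnj6, Kcnt1 and Kcnq5. Of the 21, 13 were detected on replicate 1. The arrays of the earlier scan day, male replicate 1 and female replicate 2, shared 7 member probes past 2.5-fold higher and 3 lower (all probes: 2% and 4.77%). Among the 7 only Kcnt1 was detected on both, and Kcnd1, Kcna5 and Kcna7 held the 3 lower probes. Scan day cannot be told apart from dose for these arrays, since no 2 mg array was scanned on the earlier day. Titles number the 20 mg arrays but do not tie a number to an extraction batch, so its part cannot be told apart either. Nor can slide be told apart from dose in males, as neither male array at 20 mg shared a slide with a 2 mg array.

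Male replicate 2 varied with the base composition of the probe. Over the 81 member probes detected on the other 5 arrays, its difference from the 2 mg array had Pearson's r = 0.52 and Spearman's rho = 0.55 with the share of G and C bases, across probes that share a library and are not independent. Over all 25746 such probes rho was 0.54. For male replicate 1 the members had rho = 0.02. The 9 members past 2.5-fold lower on replicate 2 had a median of 36.7% G and C and the 9 higher 51.7%. A Kcnd1 probe with 55% G and C was higher there by 2.37, and Kcnc2 and Kcnma1 probes with 36.7% were lower, at -1.58 and -1.40. The part of base composition in the male differences was not tested.

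**Figure D5:**
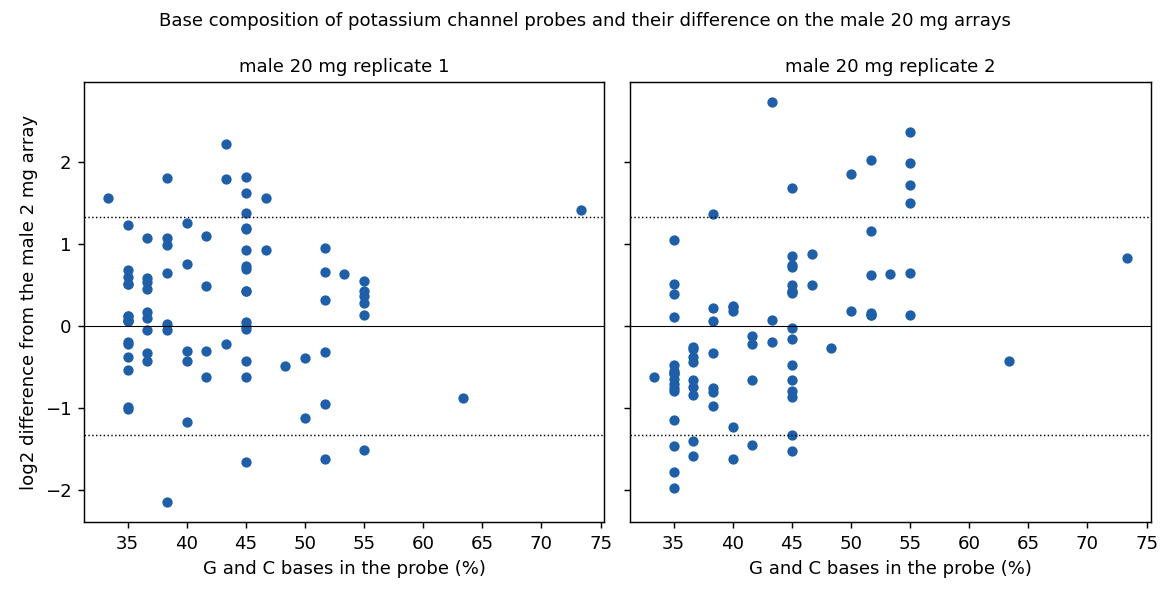
Share of G and C bases in each probe (x axis, percent) and its log2 difference from the male 2 mg array (y axis) for 81 potassium channel probes on each male 20 mg array. The points climb from left to right on replicate 2 (rho = 0.55) and not on replicate 1 (rho = 0.02).

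Genes that work with these channels were counted from a list of 23, among them pacemaker channels, Kv4 partners, sulfonylurea receptors, sodium pumps and chloride transporters. In females 4 were called lower and 0 higher, in males 0 and 0, against 10.3% lower and 8.65% higher of all probes in females and 2.17% and 1.42% in males, and limma called 0 in any comparison. None of the 4 was detected on female replicate 2, they differed by up to 0.53 from the 2 mg array on replicate 1, and 0 partners were called in females without replicate 2. Dpp10, a Kv4 partner, read 11.58 at 2 mg and 11.80 and 5.82 at 20 mg in females, the last of these not detected. Their median difference was -0.01 on female replicate 1, -0.72 on female replicate 2, 0.11 on male replicate 1 and -0.18 on male replicate 2.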

How the data were processed

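RNA was measured on 6 single-colour Agilent arrays. Per the labels and the file headers, the authors made the intensity values with Agilent Feature Extraction 10.7.3.1, which subtracts background and adjusts for spatial trend without scaling between arrays. The deposited value table holds log2 values that the authors quantile normalized and gave a floor, and it served as an alternative. Here outlier spots were dropped and the processed intensity was averaged per probe and log2 transformed. Following the study's methods, the 6 arrays were brought to the same quantiles and values under a floor of 10 were set to it, in an order chosen here. A variation filter (chi-square p of 0.05 or less, at most 50% missing) preceded the 2.5-fold rule on means.

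limma 3.58.1 (R 4.3.3) fitted 4 groups of sex and dose with an intensity trend on 37211 probes well above background on at least 2 arrays. It had 2 residual degrees of freedom and assumed that the lone 2 mg arrays vary like those at 20 mg. p-values were adjusted by Benjamini-Hochberg over all these probes. On simulated data with a noise SD of 0.2 it recovered 100% of 200 changes of 4 on the log2 scale among 37211 probes in each comparison. With noise as large as between the arrays (SD 1.32) the shares were 0% for either sex alone and 28% for the sexes combined, so 0 calls say little about the absence of change. The number of arrays and the noise between them limit the precision. The limma p-values measure the spread within the pairs of 20 mg arrays, moderated by that of all fitted probes. Arrays of a pair differed in pool, slide and scan day, and the spread does not tell these apart.

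Members and lists were chosen with earlier results of these data known. Named were the study's 5 listed channel genes, a list of 24, and genes past 2.5-fold on both arrays at 20 mg of a sex or on female replicate 1 against both 2 mg arrays, up to 5 per direction, and those with the smallest limma p, all by brightest probe (highest mean over the 6 arrays). Kcna6, Kcnh7, Kcns1 and the genes named beside counts of calls were added after their values were seen. All 89 genes and 121 of 134 probes matched a RefSeq entry, used for names. Some genes are not reported here by name. No protein sequences were used. The number of columns from samples outside the study was 0.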

Additional observations from a re-analysis of the deposited data

How the results depend on the processing

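Counts of member probes past the fold depended on the processing. In females the 12 lower and 9 higher became 0 and 1 with a 75th percentile shift, 19 and 6 with the floor set before normalization, 4 and 3 with normexp, 12 and 3 in the deposited value table, 15 and 16 without the variation filter, and 12 and 4 with only probes well above background on every array of 1 dose. In males 0 and 0 became 1 lower and 0 higher with the floor first, 0 and 1 in the deposited table and 1 and 2 without the filter. Leaving out 1 array at 20 mg at a time gave 4 to 19 lower and 3 to 14 higher in females, the fewest without female 20 mg replicate 2, and 0 to 4 lower and 0 to 9 higher in males. Without both arrays of the earlier scan day, chosen after seeing the data, the counts were 5 and 4 in females and 12 and 13 in males, under a filter that then compares 4 arrays. Shares of all probes are not given for these alternatives, so the counts do not say whether members moved more than the array as a whole.

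The median difference of members in females, 0.05, was 0.85 with the 75th percentile shift (all probes: 1.04), 0.0213 with the floor first, 0.0579 with normexp, -0.00939 in the deposited table, 0 to 0.0579 with 1 array left out and 0.0213 without the earlier scan day. In males it stayed within the spread of the arrays, from 0 to 0.30. Kcna2 in females turned to 0.0635 with the percentile shift. With 1 array left out it ran from -3.26 to 0.37, Kcnc2 from -4.88 to 0.0882 and Kcnk3 from -4.38 to 0.32, each above 0 only without female 20 mg replicate 2. Without the earlier day they were 0.35, 0.0872 and 0.31. Except where values near 3.32 or fewer arrays show it, the cause was not tested.

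limma called 0 member probes under every alternative run, including scan day or slide as a block and 1 array left out. With the replicate block over the 20 mg arrays it called 0 as well, and the numbers come from the labels, which do not tie the pools of a number together. Depth in the sense of signal over background limits female replicate 2 most, with 33 of 134 member probes detected.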
